A study of Homo sapiens with 10 samples.

Results

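The HOX gene clusters were examined as 4 windows of the human genome, each running from 20 kb before the outermost listed HOX gene at one end to 20 kb past the outermost listed gene at the other. The members were 38 HOX genes, listed by name, of 20033 protein-coding genes annotated on chromosomes 1 to 22, X and Y. The windows covered 675.35 kb of hg38 in all: HOXA at chr7:27080354-27220091 with 10 listed genes, HOXB at chr17:48508526-48748750 with 10, HOXC at chr12:53918831-54076030 with 9 and HOXD at chr2:176072721-176210907 with 9. HOXA and HOXB genes lie on the minus strand, and HOXC and HOXD genes on the plus strand.

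The study mapped CTCF and 3 histone modifications by chromatin immunoprecipitation and sequencing (ChIP-seq) in HEK293T, a human embryonic kidney line that carries the SV40 large T antigen. Cells were transduced with lentivirus and carried a non-targeting shRNA (CT), an shRNA against CGGBP1 (KD) or a construct that overexpresses CGGBP1, a DNA-binding protein with affinity for CGG repeats (OE); CT and KD cells were selected with puromycin. CTCF was profiled in CT, KD and OE, H3K4me3, H3K9me3 and H3K27me3 in CT and KD, and 1 Input library, whose transduced cells are not named, was sequenced. Each target and condition had 1 library, so no difference between conditions has a replicate check and none was tested. The intervals given below are exact Clopper-Pearson 95% intervals and cover counting error only.

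HOX genes encode homeodomain transcription factors that set positional identity along the body axis. Genes at the same place in the 4 clusters are paralogs and share a group number, from group 1 at the 3′ end of a cluster to group 13 at the 5′ end. Trithorax complexes, which write H3K4me3, keep HOX genes active, Polycomb complexes, which write H3K27me3, keep them silent, and CTCF bound between HOX genes is known to act as a boundary between such domains. H3K9me3 is the mark of constitutive heterochromatin.

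The deposited values were peak positions with no heights, so a peak stands for a region that passed the peak caller's threshold in that library. Peaks of the 3 unmasked and 3 repeat-masked CTCF lists that shared at least 1 bp were joined into sites, which gave 47 sites in the HOX windows of 93390 on the same chromosomes. A CTCF motif, a 14-position matrix learned from CTCF peaks outside the windows, was searched on both strands of every site. The best match of a site is called its motif when its probability under the base composition of the genome was below 0.0001.

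7 sites were in all 6 CTCF lists (14.9%, 6.20 to 28.3, against 10.7% of all sites), and all 7 held a motif, as did 96.5% of all the genome's sites in those 6 lists. 6 of them are shown because they were found in every condition, with and without repeat masking. Each line gives the 60 bases around the motif, read along the strand of the motif, with the 14 motif bases in capitals; the name gives the listed genes on either side, ordered by their coding starts.
HOXC9/HOXC8, chr12:54006099-54006158, plus strand: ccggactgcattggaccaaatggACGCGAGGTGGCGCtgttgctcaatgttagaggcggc
HOXC6/HOXC5, chr12:54032719-54032778, plus strand: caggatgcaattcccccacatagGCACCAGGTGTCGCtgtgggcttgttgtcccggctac
HOXB6/HOXB7, chr17:48602730-48602789, plus strand: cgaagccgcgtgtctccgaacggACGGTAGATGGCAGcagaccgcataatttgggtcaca
HOXB9/HOXB13 (nearer HOXB9), chr17:48671784-48671843, plus strand: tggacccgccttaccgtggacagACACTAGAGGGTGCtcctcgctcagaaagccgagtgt
HOXB9/HOXB13 (nearer HOXB13), chr17:48678577-48678636, plus strand: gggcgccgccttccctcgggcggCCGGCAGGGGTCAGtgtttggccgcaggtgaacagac
HOXD13/HOXD12, chr2:176097734-176097793, minus strand: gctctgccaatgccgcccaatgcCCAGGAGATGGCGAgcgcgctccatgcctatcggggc

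The interval between the group 9 gene and the next listed gene on its 3′ side held a CTCF site with a motif in all 4 clusters. This interval was singled out after its values were seen. Most intervals between listed neighbours held a site with a motif, so holding 1 was not particular to this place. Sites with a motif also lay between the group 11 and group 10 genes in HOXA, HOXC and HOXD, the clusters that list both. The same held between the group 6 and group 5 genes in HOXA, HOXB and HOXC. For the interval beside group 9, the HOXC site is printed above, and the sites of the other clusters with the most lists are given next.
HOXA9/HOXA7, chr7:27161113-27161172, minus strand: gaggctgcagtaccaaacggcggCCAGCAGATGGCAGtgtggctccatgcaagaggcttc
HOXB9/HOXB8, chr17:48618721-48618780, minus strand: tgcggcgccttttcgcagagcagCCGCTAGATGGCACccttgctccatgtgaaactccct
HOXD9/HOXD8, chr2:176127182-176127241, plus strand: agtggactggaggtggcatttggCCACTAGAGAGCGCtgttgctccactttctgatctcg

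In all 4 clusters the motif of this site lay on the strand of the HOX genes. Over the 6 pairs of these sites, 23 to 31 of the 60 bases were identical, with a median of 28.5. Over the other 490 pairs of HOX sites with a motif, 10 to 34 bases were identical, with a median of 20. The 4 sites were in 4 to 6 lists each, while the other pairs include sites in 1 list, so the 2 sets are unlike. Some of the other pairs had more identical bases than any of the 6 pairs, and the difference was not tested. The motif of the HOXC9/HOXC8 site was also identical in all 14 positions to that of the site between HOXA11 and HOXA13. Over all 32 HOX sites with a motif, the motif lay on the strand of the HOX genes at 3 sites of HOXA, 4 of HOXB, 5 of HOXC and 4 of HOXD, and on the opposite strand at 1, 8, 3 and 4 sites.

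The CTCF lists held more peaks in the HOX windows in KD and OE than in CT. The unmasked lists had 18 CT peaks, 29 KD peaks and 33 OE peaks, out of 42978, 47632 and 47216 peaks in the lists. This is 0.0419% of the CT list (0.0248 to 0.0662), 0.0609% of the KD list (0.0408 to 0.0874) and 0.0699% of the OE list (0.0481 to 0.0981), so the intervals of the 3 lists overlapped. Per megabase the windows held 26.7 CT peaks, 42.9 KD peaks and 48.9 OE peaks, against 14.2, 15.7 and 15.7 over the genome. The repeat-masked lists, which share 1 threshold, had 13 CT peaks, 19 KD peaks and 14 OE peaks, so the excess of OE over CT was mostly in the unmasked lists. The labels give a looser p threshold for the unmasked OE list (0.005) than for CT and KD (0.0025), and the part of this in the OE count was not tested.

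In the unmasked lists, the clusters differed in where the extra peaks lay. HOXA had 3 CT peaks, 5 KD peaks and 9 OE peaks. HOXB had 6, 12 and 8. HOXC, the cluster with the least difference, had 5, 4 and 7, and HOXD had 4, 8 and 9. In these lists HOXA therefore had its highest count in OE and HOXB in KD. The repeat-masked lists had 1 CT peak, 5 KD peaks and 4 OE peaks in HOXA and 5, 5 and 4 in HOXB. They had 4 in each condition in HOXC, and 3, 5 and 2 in HOXD. The unmasked order of HOXA and HOXB was thus absent from the repeat-masked lists.

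**Figure D1:**
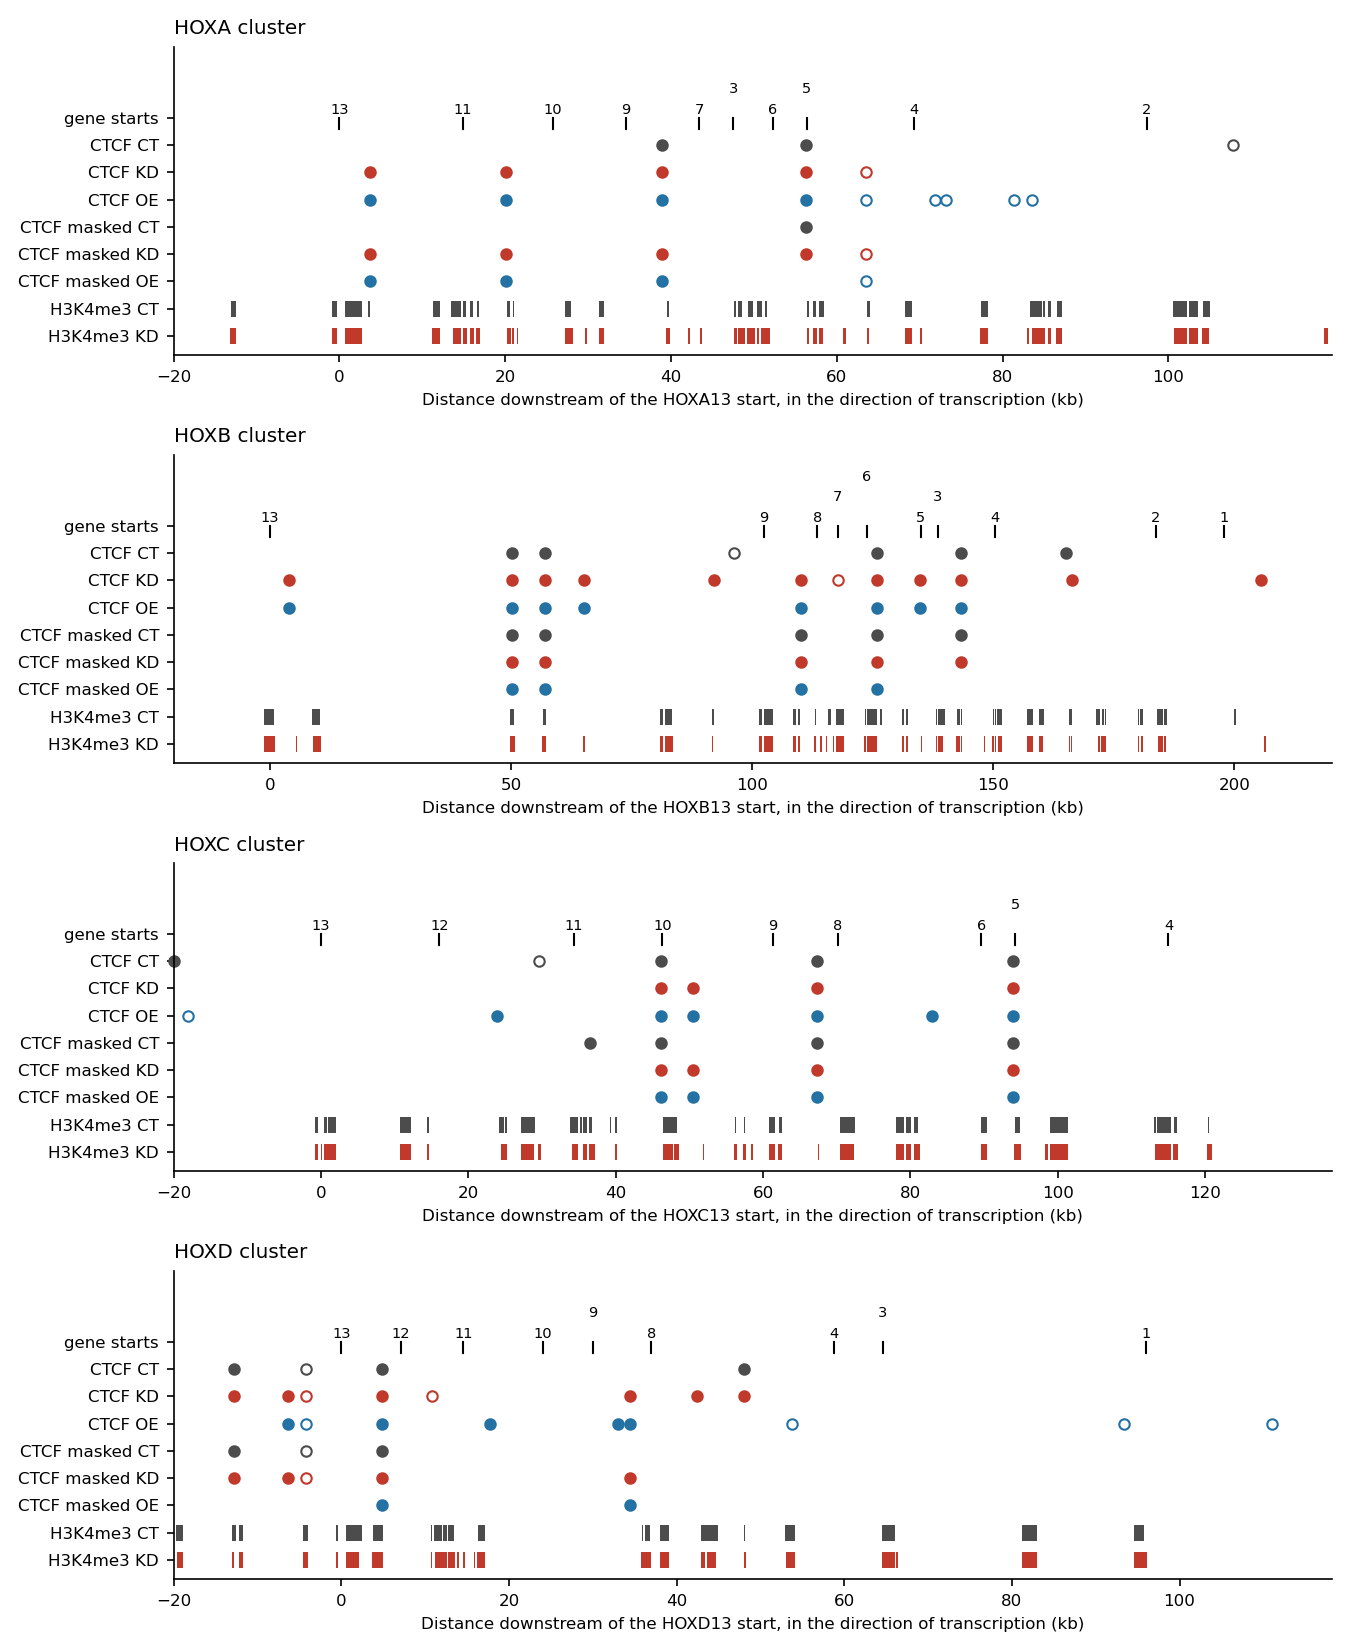
Each panel shows 1 HOX window to scale, with the distance downstream of the group 13 gene start in kb on the x axis. Ticks are starts of the listed genes by group number, circles are CTCF sites in each unmasked and repeat-masked list (filled where the site holds a motif, open where it does not), and blocks are H3K4me3 peaks of CT (grey) and KD (red). The columns of filled circles mark the 7 sites in all 6 lists, 3 in HOXB, 3 in HOXC and 1 in HOXD.

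CT peaks in the windows were found again in KD in 13 of 18 cases (72.2%, 46.5 to 90.3), where 50.2% of the whole CT list was. In OE 11 of the 18 were found (61.1%, 35.7 to 82.7), where 46.5% of the list was. Both list shares lay inside the intervals of the HOX shares. Of the 29 KD peaks, 16 overlapped no CT peak, and this share was near that of the whole KD list, where 54.8% overlapped none. Of the 33 OE peaks, 22 overlapped no CT peak, against 57.6% of the list. In the repeat-masked lists, 12 of 13 CT peaks were found in KD (92.3%, 64.0 to 99.8), where 54.4% of the list was, and the list share lay below that interval. The KD and OE comparisons share the CT library, so both rest on the same CT list.

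By the unmasked lists that held them, 11 of the 47 sites were in CT, KD and OE (23.4%, 12.3 to 38), against 19.2% of all sites. A further 10 were in KD and OE without CT, where the genome had 11.3%, and the interval of the HOX share ran from 10.7 to 35.7%. 12 sites were in OE alone (17.1% of all sites), 6 in KD alone (15.8%), 5 in CT alone (20.9%), 2 in CT and KD, none in CT and OE, and 1 was only in the repeat-masked CT list. Each of these HOX shares had an interval that held the genome share.

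**Figure D2:**
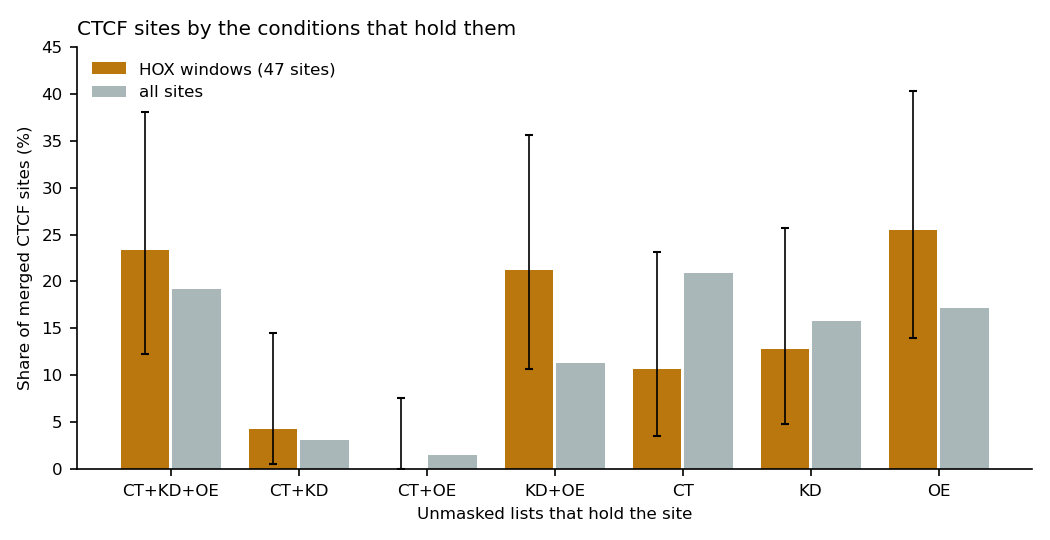
Bars give the share of merged CTCF sites, in percent, by the unmasked lists that hold them, for the 47 HOX sites (brown, with exact 95% intervals) and for all 93390 sites (grey). Each HOX interval holds the genome share, and no HOX site was in CT and OE without KD.

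A motif was found in 32 of the 47 HOX sites (68.1%, 52.9 to 80.9), where 41.8% of all sites had 1. HOX sites were also richer in G and C, with a median of 50.3% against 40.1%, and wider, with a median of 329 bp against 293 bp. With the search held to 200 bp around the centre of each site, the shares were 55.3% and 37.5%. The part of either property in the motif count was not tested beyond this. With a stricter matrix threshold the shares were 36.2% and 29.4%, and with a 12-base core consensus allowing 1 mismatch they were 17.0% and 22.6%, so the order of HOX and genome turned with the way the motif was called. 13 of the 16 HOX sites in KD but not CT held a motif (54.4 to 96.0%), where 58.3% of all such sites did. Of the 5 in CT but not KD, 2 held 1 (5.27 to 85.3%), where the genome had 16.6%. Both genome shares lay inside the HOX intervals.

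HOXC held 3 of the sites in all 6 lists. The site between HOXC9 and HOXC8 lay 2865 bp upstream of HOXC8, in an intron of a read-through transcript, with unmasked CT, KD and OE peaks of 428, 284 and 424 bp. The site before HOXC5 was 338 bp upstream of that gene's start, with peaks of 296, 298 and 344 bp. All 3 were present in CT, KD and OE whether or not repeats were masked.

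In HOXB, the site in all 6 lists nearest to a gene lay in the intron of HOXB6, 2132 bp downstream of its start. The other 2 lay in introns of LINC02086, a long non-coding RNA in the wide gap between HOXB9 and HOXB13. In HOXD, the site between HOXD13 and HOXD12, genes used in digit and limb formation, had unmasked CT, KD and OE peaks of 298, 649 and 252 bp. HOXA had no site in all 6 lists. The site 174 bp upstream of HOXA5 was missing only from the repeat-masked OE list, and the HOXA9/HOXA7 site only from the repeat-masked CT list.

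5 sites were in KD and OE in both the unmasked and the repeat-masked lists and in CT in neither (10.6%, 3.55 to 23.1), against 3.71% of all sites. 3 of them were in HOXA, at chr7:27196191-27196556 in a UTR of HOXA13 on its HOXA11 side, at chr7:27179747-27180122 between HOXA11 and HOXA10 in a UTR of a read-through transcript, and at chr7:27136437-27136765 between HOXA5 and HOXA4 in introns of HOXA3 and HOXA-AS3. The remaining 2 were at chr12:53989157-53989427, in coding sequence of HOXC10, and at chr2:176126988-176127410, the HOXD9/HOXD8 site printed above. At the HOXA11/HOXA10 site the unmasked KD and OE peaks were 376 and 249 bp, and at the HOXD9/HOXD8 site 423 and 253 bp. No HOX site showed the opposite pattern, CT in both versions and KD and OE in neither, which 2.66% of all sites had; 0 of 47 allows a share of up to 6.38%, taken as 3 counts.

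Between HOXA4 and HOXA3 the only CTCF peaks were 4 of OE, none with a motif and none in a repeat-masked list. Over the windows, the 12 sites in the unmasked OE list and no other list were 25.5% of HOX sites (13.9 to 40.3), where the genome had 15.9%, and 4 of the 12 held a motif, against 15.1% of all sites in that list alone.

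The 10 sites in a single condition's unmasked list that held a motif are shown next by their motif alone, as the positions where the conditions parted. Those found in CT alone lay in the flank 5′ of HOXC13 and between HOXB3 and HOXB4.
CT, 5′ of HOXC13: GCAGAAGGTGGAAG
CT, HOXB3/HOXB4: CCAGATGAGGGAGA
KD, 3′ of HOXB1: ACTGCAGGGGGCGC
KD, HOXB3/HOXB4: CCCCCAGATGGCCA
KD, HOXB9/HOXB13: CCTCTAGGCGGCGC
KD, HOXD8/HOXD4: GCTCCAGAGGGTGC
OE, HOXC12/HOXC11: TCAGCAGATGGAGA
OE, HOXC8/HOXC6: ACGCAGGGTGGCAG
OE, HOXD11/HOXD10: CCACCAGAAGGTGT
OE, HOXD9/HOXD8: CCGGCAGAAGGTGC

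Matrix scores, in log2 units against the genome's base composition, were 9.46 and 11.6 for the 2 CT sites, 9.6 to 16.07 for the 4 KD sites and 10.17 to 10.65 for the 4 OE sites. The 7 sites in all 6 lists scored from 9.85 to 15.33, so the ranges overlapped. The OE site between HOXC12 and HOXC11 lay in an exon of HOTAIR, the antisense RNA of that interval.

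CTCF within 1 kb of a gene start was found at 3 genes in CT, among them HOXA5 and HOXC5 (3 of 38, against 7.04% of all protein-coding genes). KD added HOXB5 and HOXB7, for 5 genes, against 11.1% of all. OE had 4 genes, among them HOXA5, HOXB5 and HOXC5, against 9.7%. These counts were close to the background of each list. The HOXB5 peak was 279 bp upstream of the start, held a motif with a score of 16.56, and was absent from all repeat-masked lists.

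H3K4me3 covered the HOX windows densely. The CT list had 120 peaks there and the KD list 136, which is 178 and 201 peaks per Mb against 25.2 and 26.9 over the genome. The peaks covered 13.5% of the windows in CT and 14.7% in KD, where 1.76% and 1.82% of the genome was covered. The windows were set around genes, and the part of gene density in these values was not tested. By cluster, the CT peaks numbered 32 in HOXA, 37 in HOXB, 30 in HOXC and 21 in HOXD, and the KD peaks 38, 42, 32 and 24. Each cluster thus had more H3K4me3 peaks in KD, as had the whole list, with 81932 in KD and 76814 in CT.

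The share of HOX starts with H3K4me3 lay within counting error of that of all protein-coding genes and below that of CpG-rich starts. A peak within 1 kb of the start was found at 26 of 38 HOX genes in CT (68.4%, 51.3 to 82.5) and at 29 in KD (76.3%, 59.8 to 88.6). The background was 69.7% of all protein-coding genes in CT and 70.4% in KD. Of genes whose start was rich in CpG, as 31 of the 38 HOX starts were, 92.7% had a peak in CT and 93% in KD, above both HOX intervals. Homeobox genes outside the clusters, 61 in the list used, had a peak at 49 starts in both conditions (80.3%).

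**Figure D3:**
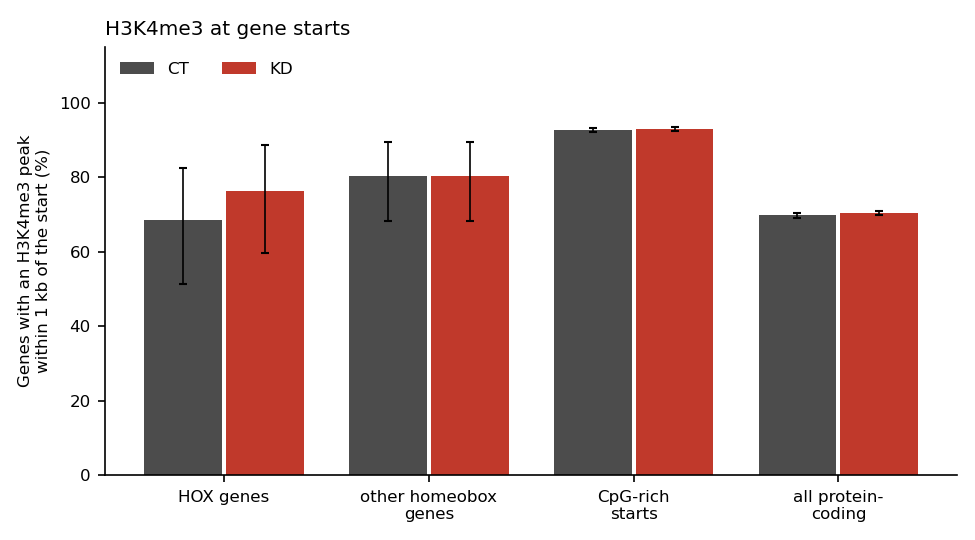
Bars give the percentage of genes with an H3K4me3 peak within 1 kb of the start in CT (grey) and KD (red), with exact 95% intervals, for the 38 HOX genes, 61 other homeobox genes, 12972 genes with a CpG-rich start and all 20033 protein-coding genes. The HOX bars stand at 68.4% and 76.3%, below the 92.7% and 93% of CpG-rich starts.

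By cluster, H3K4me3 was at the start of 6 of 10 HOXA genes in CT and 7 in KD, 8 and 9 of 10 HOXB genes, 8 of 9 HOXC genes in both, and 4 and 5 of 9 HOXD genes. The share was highest in HOXC in CT and in HOXB in KD, and lowest in HOXD in both; the order was not tested. By group, the counts were 5 of 7 in both conditions for groups 1 to 3, 12 and 14 of 15 for groups 4 to 8, and 9 and 10 of 16 for groups 9 to 13. These are starts of canonical transcripts, which do not all follow the group order. The HOXA3 start lies between those of HOXA6 and HOXA7, and the HOXB3 start between those of HOXB4 and HOXB5. Both had H3K4me3 in both conditions, so the counts by group are not counts by position.

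The 3 genes per cluster with the most bases under H3K4me3 in CT within 2 kb of the start included the group 13 gene in HOXA, HOXC and HOXD. In HOXA they were HOXA11 with 2136 bp, HOXA13 with 1846 bp and HOXA5 with 1156 bp, which had 2235, 2008 and 1214 bp in KD. In HOXB they were HOXB9 with 2409 bp, HOXB6 with 2257 bp and HOXB7 with 2216 bp, and KD had 2314, 2360 and 2054 bp. In HOXC, HOXC4 had 2532 bp, HOXC10 1945 bp and HOXC13 1926 bp, with 2805, 1686 and 2356 bp in KD. In HOXD, HOXD13 had 1736 bp, HOXD8 1708 bp and HOXD3 1579 bp, with 1742, 2068 and 1750 bp in KD. All 12 of these genes had less than a 2-fold difference between CT and KD.

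7 HOX genes had no base under an H3K4me3 peak within 2 kb of the start in CT or in KD. They were HOXA2 and HOXB1, which act in the hindbrain, HOXA9, and the HOXD genes HOXD4, HOXD9, HOXD10 and HOXD12. Cover in either condition was found at 31 of 38 HOX genes, 14552 of all 20033 protein-coding genes and 51 of 61 other homeobox genes. Of genes with a CpG-rich start, 12155 of 12972 had cover. Having no cover was thus not particular to HOX genes. In HOXC, the gene with the fewest bases, HOXC12, had 369 bp in CT and 280 bp in KD, followed by HOXC5 with 765 and 848 bp. Every HOXC gene had some H3K4me3 within this distance, and 4 of the 9 HOXD genes had none in either condition.

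**Figure D4:**
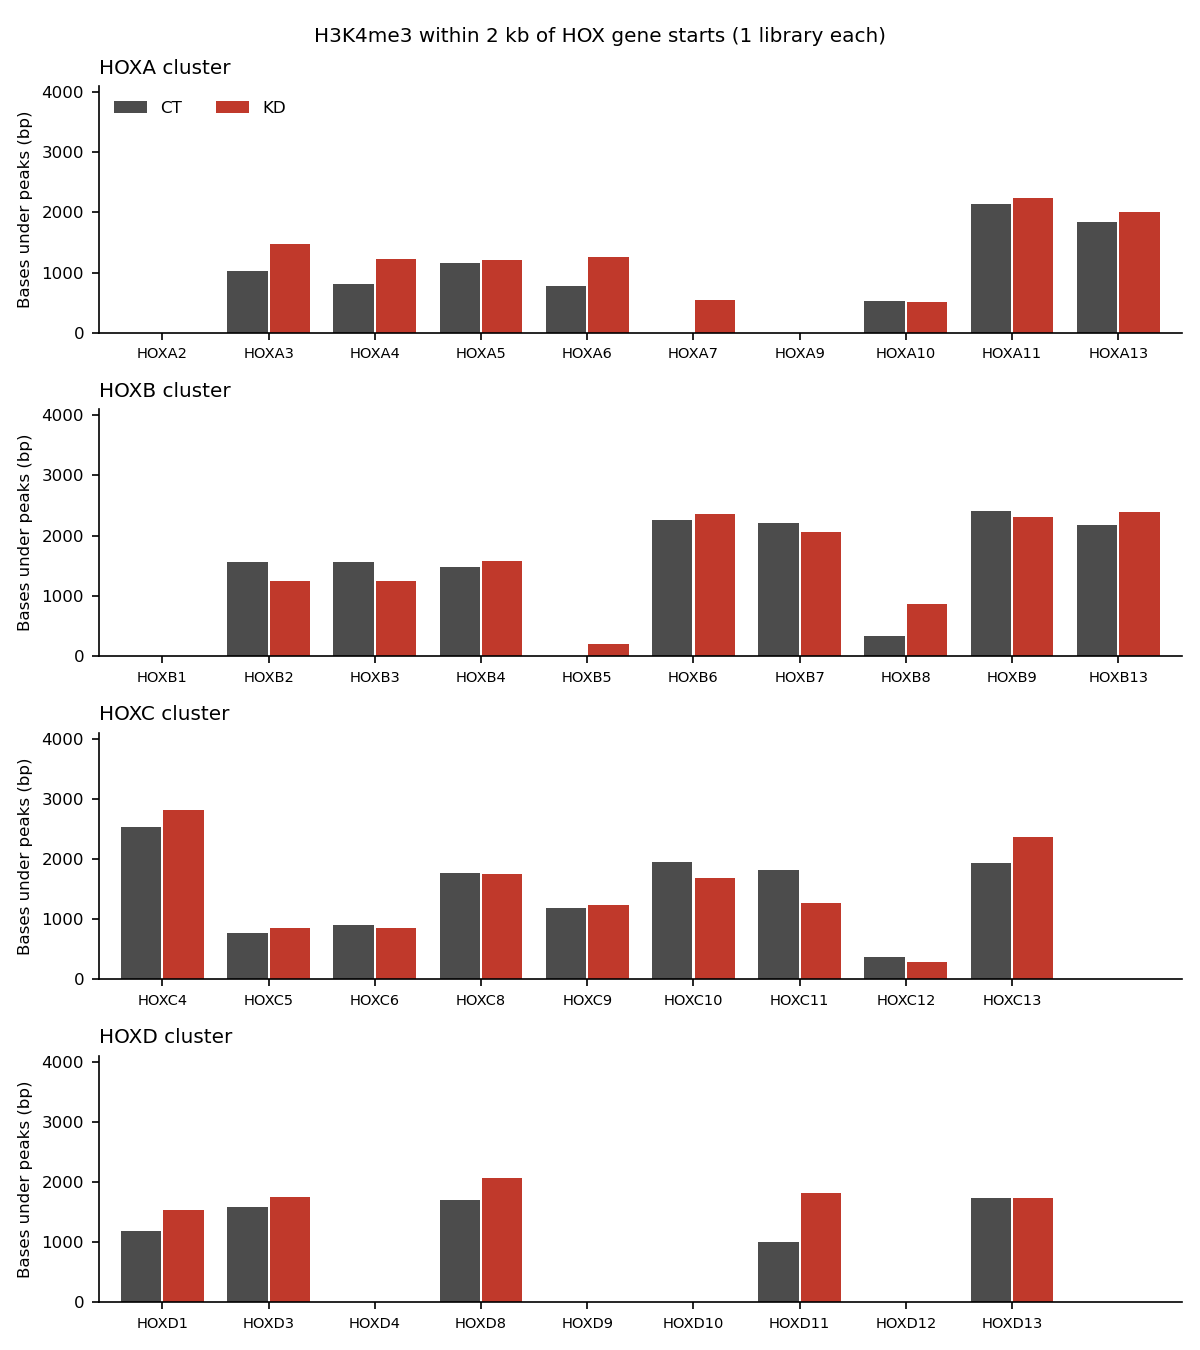
Bars give the bases under H3K4me3 peaks, in bp, within 2 kb either side of the start of each listed HOX gene in CT (grey) and KD (red), 1 library each. HOXA7 and HOXB5 have bars in KD alone, and 7 genes have no bar.

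3 HOX genes had H3K4me3 at the start in KD and not in CT, and none the reverse. The background was 0.998% of all protein-coding genes for KD only and 0.359% for CT only, and 0.424% and 0.108% of genes with a CpG-rich start. HOXA7 had 0 bp in CT and 535 bp in KD within 2 kb, with a KD peak of 211 bp 140 bp from its start at chr7:27156675. HOXB5 had 0 bp in CT and 197 bp in KD, from a single peak of 197 bp 49 bp from its start at chr17:48593779. HOXD11 had 1009 bp in CT and 1826 bp in KD, and a KD peak of 295 bp covered its start at chr2:176107280. The peaks that set these 3 calls were narrow, from 197 to 295 bp, where the median H3K4me3 peak of the KD list was 520 bp wide, and the KD list had more peaks than the CT list.

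On a log2 scale with 100 bp added to both conditions, cover within 2 kb was past 2-fold higher in KD at 3 HOX genes and past 2-fold lower at none, against 1.36% and 0.464% of all protein-coding genes. The 3 were HOXA7 (2.67), HOXB5 (1.57) and HOXB8, which had 332 bp in CT and 867 bp in KD (1.16). Over the 31 HOX genes with any cover the median log2 difference was 0.08, with 21 genes higher and 10 lower in KD, and over the 14552 covered genes of all it was 0.005, with 7594 higher and 6902 lower. HOXA had 7 genes higher and 1 lower in KD and HOXD 5 and 0, while HOXB had 5 and 4 and HOXC 4 and 5.

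Over whole windows, the bases under H3K4me3 went from 20151 in CT to 24593 in KD in HOXA (log2 difference 0.29), from 28831 to 29235 in HOXB (0.02), from 23811 to 26244 in HOXC (0.14) and from 18589 to 19369 in HOXD (0.06). The sum was 91382 bp in CT and 99441 bp in KD, a log2 difference of 0.12, against 0.05 for the genome. HOXA had the widest difference of the 4 windows and HOXB the narrowest. Of the bases covered in either condition, 77.2% were covered in both.

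Of the 120 CT peaks in the windows, 114 were found in KD (95%, 89.4 to 98.1), where 85.9% of the whole CT list was, below that interval. KD peaks covered 14.7% of the windows and 1.82% of the genome, and the part of this in the overlap was not tested. When at least 0.5 of each peak had to overlap, the HOX share was 81.7%, and the list share was not computed. Of the 136 KD peaks, 110 were found in CT (80.9%, 73.3 to 87.1), where 80.7% of the KD list was. The 26 peaks of KD alone had a median width of 220.5 bp, and 8 had their centre within 1 kb of a listed start. The 6 peaks of CT alone had a median width of 288 bp.

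CTCF sites of the windows were under H3K4me3 in 20 of 47 cases in CT and 21 in KD, where 20.2% and 20.6% of all sites were. At 18 sites both conditions had H3K4me3, at 2 only CT and at 3 only KD. The KD peaks included 1 of 193 bp at the HOXC9/HOXC8 site and 1 of 424 bp at the site of KD and OE at chr17:48663442-48663846, in LINC02086. The peak of 193 bp overlapped only the unmasked OE peak of its site, and no CTCF peak of CT or KD. The CT peaks included 1 of 219 bp at the HOXA13/HOXA11 site, where CTCF was in KD and OE. H3K4me3 peaks covered many bases of the windows, so some overlap with CTCF sites follows from cover, and that part was not tested.

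H3K9me3 peaks were about as dense in the windows as over the genome. The CT list had 3 peaks there and the KD list 2, which is 4.44 and 2.96 peaks per Mb against 4.82 and 2.73 over the genome. The 3 CT peaks were 161 bp wide, at chr12:53982899-53983059, 2.17 kb upstream of HOXC10, at chr17:48580000-48580160, 1.73 kb upstream of HOXB4, and at chr2:176167696-176167856, in an intron of HOXD3. The 2 KD peaks were in HOXA, at chr7:27146365-27146521 in an intron of HOXA6 and at chr7:27166701-27166873, 1.25 kb upstream of HOXA9, 157 and 173 bp wide. None of the 3 CT peaks was found in KD (0 to 70.8%), where 31.5% of the CT list was, and neither KD peak was found in CT (0 to 84.2%), where 54.7% of the KD list was. Widths of 161 bp and 157 bp were the narrowest widths of the 2 lists, which 36.1% of all CT peaks and 21.1% of all KD peaks had.

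H3K27me3, the Polycomb mark, had no peak in any HOX window in CT or in KD. The lists held 6003 and 4804 peaks, so 0 allows up to 0.0500% and 0.0624% of each list. At their density over the genome, windows of this length would hold 1.28 and 1.02 peaks. The 7 HOX genes without H3K4me3 thus had no called H3K27me3 either. The H3K27me3 lists covered only 0.0443% of the genome in CT and 0.0343% in KD. Of their peaks, 47.9% and 51.7% were at most 200 bp wide. The absence of a peak therefore does not show that the mark was absent. No HOX start had H3K9me3 or H3K27me3 within 1 kb (0 of 38, which allows up to 7.89%), and among all protein-coding genes the shares were 0.983% and 0.574% for H3K9me3 and 0.334% and 0.0649% for H3K27me3, in CT and KD. The labels and the study's methods name opposite antibodies for these marks, and the lists were read by the mark in their titles. The Input list of 2676 peaks had none in the windows.

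RNA genes inside the clusters were also compared. Of the 15 listed, 9 had H3K4me3 within 1 kb of the start in CT and 12 in KD, against 69.7% and 70.4% of all protein-coding genes. The further ones were HOXA-AS3, MIR196A2 and MIR10A, against 0.998% of protein-coding genes with a peak in KD only. The listed RNA genes include microRNAs, so they are unlike the protein-coding genes set beside them. The KD peaks that set these calls were 334, 230 and 187 bp wide, where the median of the KD list was 520 bp. MIR196A2 had 0 bp within 2 kb in CT and 230 bp in KD. MIR10A, beside HOXB4, had 487 and 773 bp. HOTAIR had 1886 and 2039 bp, HOTTIP, at the 5′ end of HOXA, 546 and 626 bp, and HOTAIRM1 2256 and 2167 bp. MIR10B, MIR196A1 and HOXA-AS2 had 0 bp in both.

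The microRNAs of the clusters are paralogs too, and the miR-196 family is known to target HOX transcripts. Their mature sequences, from RefSeq (GRCh38.p14), are shown to set the loci that differed side by side, with the seed, bases 2 to 8, in capitals.
miR-196a-5p (MIR196A1 and MIR196A2): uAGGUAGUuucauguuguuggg
miR-196b-5p (MIR196B): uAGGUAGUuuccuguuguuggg
miR-10a-5p (MIR10A): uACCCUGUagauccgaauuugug

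The 3 miR-196 loci share 1 seed but not 1 H3K4me3 state. MIR196B, between HOXA9 and HOXA10, had 503 bp in CT and 764 bp in KD, MIR196A2 had bases in KD alone, and MIR196A1, between HOXB9 and HOXB13, had none. The hairpin of MIR196A1 lay under a CTCF peak of 312 bp in CT alone, chr17:48632378-48632689, with no motif.

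Of the neighbouring genes, 5 of 8 listed had H3K4me3 at the start in CT and 7 in KD, against 69.7% and 70.4% of all protein-coding genes. A peak in KD only was at 0.998% of all protein-coding genes. HOTTIP is counted here and among the RNA genes. PRAC1 and PRAC2, small genes 3′ of HOXB13, had 0 bp in CT and 242 bp in KD, from 1 peak of 242 bp that both share. EVX2, the homeobox gene 5′ of HOXD13, had 0 bp in both, and a CTCF site in CT and KD covered part of its coding sequence and UTR at chr2:176079639-176080188. EVX1, SKAP2, MTX2 and HNRNPA1, whose starts lie outside the windows, had H3K4me3 at the start in both conditions.

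Repeated sequence took a smaller share of the HOX windows than of the genome. Bases inside 24-mers that occur at least 10 times in hg38 were 8.92% of the windows, against 23.2% of every 5000th base of the genome. HOXB had 17.0%, HOXD 6.46%, HOXC 3.71% and HOXA 3.34%. The site with the highest share of repeated bases was the CT-only site 5′ of HOXC13, with 51.0%, and the others had from 0 to 14.6%.

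H3K4me3 was at the start of 9 of 9 genes that HEK293 cells express and of 1 of 8 markers of other cell types, MYOD1, in CT and in KD. The background was 69.7% and 70.4% of all protein-coding genes, and the 9 include genes of every cell type, such as GAPDH and ACTB, so the count does not identify the line. The level of CGGBP1 cannot be read from peak positions. Depth in reads is not known from the lists, so a peak absent from 1 list can be one that did not pass its threshold. The study reports more mapped reads in CT than in KD or OE for CTCF, and more in CT than in KD for each histone mark. The part of depth in the peak counts was not tested.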

How the data were processed

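Per the labels and the study's methods, the authors sequenced unbarcoded single-end libraries on an Ion Torrent S5, filtered reads, aligned them with Bowtie2 to unmasked or repeat-masked hg38 and called peaks per library with MACS2. The deposited values are positions, with no heights. The labels give p thresholds of 0.0025 for CTCF in CT and KD, 0.005 in OE, and 0.001 for the other unmasked lists and for repeat-masked lists, while the methods give 0.005 for unmasked reads. Starts were read as 0-based and printed 1-based. Labels and methods name opposite antibodies (Abcam and Santa Cruz) for H3K9me3 and H3K27me3. The 6 lists of exclusive peaks were not used.

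Samples were grouped by target and condition in their titles. The members, gene lists and rules were chosen with earlier results of these data known. Gene starts and features come from canonical transcripts of GENCODE 44. Covered bases were counted within 2 kb of a start, with 100 bp added before the log2 ratio and a call past 2-fold. The CTCF matrix was learned from 12850 repeat-masked CT peaks that overlap KD and OE peaks outside the windows and 50 kb around them, starting from the CTCF core consensus of 12 positions, in 6 rounds, and 12018 of the peaks held a site. Starts with GC above 0.5 and an observed over expected CpG above 0.6 in 1000 bp were called CpG-rich. Named with values were genes whose call differed between CT and KD, the 3 genes per cluster with the most and the 2 with the fewest bases under H3K4me3 in CT with ties, and the genes beside CTCF sites. The overlap and motif code was tested on simulated data. Python 3.11.15, numpy 2.4.6, pandas 2.3.3, scipy 1.17.1 and pysam 0.24.0 were used. The sequence and place of 1 of the CTCF sites in all 6 lists are not reported here.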

Additional observations from a re-analysis of the deposited data

How the results depend on the processing

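No paired analysis was possible because each target and condition had 1 library, and no replicate could be left out. Of 75 alternative values for 22 results, 61 kept their direction and stayed within 1.5 times the count or within the interval of the share; the causes of the others were not tested. With the widest 20000 peaks of each list, fewer peaks by construction, the unmasked CTCF peaks in the windows were 7 in CT, 16 in KD and 14 in OE, and H3K4me3 was at 16 starts in CT and 18 in KD. The share of CT CTCF peaks found in KD was 92.3% in the repeat-masked lists. The share of sites with a motif was 36.2% at p below 0.00001 and 17.0% by the consensus. The share of H3K4me3 peaks of CT found in KD was 81.7% when at least 0.5 of each peak had to overlap. H3K9me3 peaks of CT numbered 5 with a 50 kb flank. Of the 38 HOX genes, those with H3K9me3 numbered 1 in CT and 2 in KD within 2 kb and 2 and 3 within 5 kb. Among all protein-coding genes the shares were 1.72% in CT and 0.844% in KD within 2 kb, and 3.82% and 1.5% within 5 kb. The HOX counts were not tested against these shares.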

Other observations

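Genes that act with or on HOX genes were compared with a background of 69.7% of all protein-coding genes and 92.7% of those with a CpG-rich start that had H3K4me3 at the start in CT, and 70.4% and 93% in KD. All 9 HOX cofactors (PBX, MEIS and PKNOX genes, whose proteins bind DNA together with HOX proteins) had a peak within 1 kb of the start in CT and in KD. Of 20 Trithorax and Polycomb regulators, 19 had 1 in CT and 20 in KD, the further gene being BMI1, a Polycomb subunit, with 983 bp under H3K4me3 within 2 kb in CT and 1003 bp in KD. Of 7 upstream regulators, RARA, RARB, RARG, GDF11 and CDX2 had a peak in both conditions, and CDX1 and CDX4 in neither. The counts were not tested against these shares. None of these 36 genes was past 2-fold in either direction.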
